A study of Homo sapiens with 6 samples.

Results

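A set of 10 genes of the DNA methylation and Polycomb silencing machinery was compared between the brain-seeking breast cancer line 231-BR and its parental line MDA-MB-231. They were chosen by gene symbol, as the rows DNMT1, DNMT3A, DNMT3B, UHRF1, TET1, TET2, TET3, EZH2, SUZ12 and EED of a table of 17039 genes, and all 10 were found and tested. MDA-MB-231 is a human triple-negative breast cancer line, and 231-BR cells are a derivative of it that metastasises to the brain. Poly(A) RNA was sequenced in 6 libraries, 3 of each line by their titles, and the level of each gene was given as FPKM, a count of sequenced fragments scaled to the length of the transcript and the size of the library. Both lines were grown in DMEM with 10% fetal bovine serum and 1% penicillin-streptomycin. The 231-BR medium also held the selection drug G418 at 200 µg/mL and none is listed for MDA-MB-231 cells. By the paper, 231-BR cells were a gift from another laboratory and MDA-MB-231 cells were bought from ATCC. The drug and the source of the cells thus cannot be told apart from the line. Each group is a single cell line grown in culture, and the parallel replicates are not said to be separate cultures, so the p-values measure only the spread between these libraries, which may be technical.

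DNA methylation in mammals is laid down on cytosines of CpG dinucleotides by the de novo methyltransferases DNMT3A and DNMT3B. It is copied to the new strand after replication by DNMT1, which is brought to hemimethylated DNA by UHRF1. The TET dioxygenases TET1, TET2 and TET3 oxidise 5-methylcytosine, the first step of active demethylation. Polycomb repressive complex 2 (PRC2), with the core subunits EZH2 or EZH1, SUZ12 and EED, methylates lysine 27 of histone H3, and Polycomb repressive complex 1 (PRC1) ubiquitinates histone H2A at overlapping targets. In breast cancer, EZH2 and the methyltransferases are widely studied as drug targets.

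Several of these genes are textbook targets of the E2F factors that drive S phase, so their promoters were read for E2F-type motifs. RefSeq windows on GRCh38.p14, running from 250 bases before to 50 bases after each annotated start, were searched on both strands for TTTCGCGC, TTTGGCGC, TTTCCCGC and TTTGCCGC. Each of these can overlap its own reverse complement. They were found in 0.515%, 0.652%, 1.63% and 0.607% of all windows, in that order. Motifs were present in 5 of 22 windows, belonging to DNMT1, UHRF1, EZH2 and SUZ12, or 4 of the 10 genes. Over all genes the share was 3.99% of 27305 genes and 3.31% of 35116 windows, and it was 5.78% of the windows with at least 20 CpG. The stretch around the motif is printed for these 4 genes, since they hold the maintenance pair and the PRC2 subunits whose levels moved in opposite directions. Each sequence is 5′ to 3′ on the gene's strand, with the motif in capitals.
DNMT1, chr19:10194944-10195073 (- strand): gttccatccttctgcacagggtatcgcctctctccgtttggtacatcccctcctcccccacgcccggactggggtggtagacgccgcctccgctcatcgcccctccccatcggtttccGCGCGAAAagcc
UHRF1, chr19:4909381-4909510 (+ strand): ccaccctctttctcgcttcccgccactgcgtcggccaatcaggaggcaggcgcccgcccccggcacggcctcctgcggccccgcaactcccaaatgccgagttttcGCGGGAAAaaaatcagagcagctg
EZH2, chr7:148884282-148884411 (- strand): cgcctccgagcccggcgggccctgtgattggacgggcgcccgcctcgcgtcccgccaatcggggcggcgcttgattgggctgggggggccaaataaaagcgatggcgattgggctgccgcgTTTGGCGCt
SUZ12, chr17:31936807-31937016 (+ strand): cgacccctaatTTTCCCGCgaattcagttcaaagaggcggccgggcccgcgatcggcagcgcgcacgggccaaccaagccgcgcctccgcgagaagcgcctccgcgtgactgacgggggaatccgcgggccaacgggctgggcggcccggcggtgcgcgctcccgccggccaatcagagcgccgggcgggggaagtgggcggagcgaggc

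With the start counted as 0, the first base of the motif stood at -2 in DNMT1, -14 in UHRF1, 1 in EZH2 and -189 in SUZ12. A second annotated UHRF1 window held TTTCGCGC at -160. The windows of these 4 genes held between 30 and 46 CpG, against a median of 14 over all windows. The single DNMT3B window, chr20:32779602-32779901, held 3. Any other start of DNMT3B was not read, so this count and the lack of a motif hold for that window only. The matches describe the letters only. DNMT1 and SUZ12 were higher and UHRF1 and EZH2 lower in 231-BR cells, so genes with a match lay on both sides.

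The libraries carried the markers of their label in part. The mesenchymal marker VIM was at 2273 to 2566 FPKM and CD44 at 177 to 253 FPKM, while the epithelial cadherin CDH1 was at most 0.03 FPKM and the progesterone receptor PGR at most 0.07 FPKM. SPARC, listed with the mesenchymal markers, was low at 0.13 to 0.76 FPKM. Other epithelial and luminal markers were present: EPCAM at 4.44 to 9.31 FPKM and ERBB2 at 4.75 to 10.23 FPKM, with GATA3 at 0.32 to 1.36 FPKM and the estrogen receptor ESR1 at 0.74 to 1.08 FPKM. Of 15 markers listed 11 were tested, of which 7 rose and 3 fell in 231-BR cells, where 44.4% and 32.9% of all genes did. Among the markers that rose was the luminal factor FOXA1 at 5.47 ± 0.243 against 0.84 ± 0.105 FPKM (SD, n = 3 each). EGFR, listed with the mesenchymal markers, rose as well, at 91.2 ± 3.02 against 33.3 ± 2.91 FPKM. AXL, listed with them too, fell, at 234 ± 0.952 against 284 ± 0.309 FPKM. The markers that rose were thus of both types. The part of such a shift of markers in the results was not tested. The leukocyte marker PTPRC and the astrocyte marker GFAP were at most 0.04 and 0.07 FPKM, and the endothelial PECAM1 was at 0.15 to 0.48 FPKM. Correlations of log2 values across genes were at least 0.997 within a line and at most 0.902 between lines. Summed FPKM was 465020 to 472007 in the 231-BR libraries and 486937 to 496420 in the MDA-MB-231 libraries. Read counts were not used here, so the depth is unknown.

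In 231-BR cells the 3 methyltransferases, TET1, TET2, SUZ12 and EED were higher, and UHRF1, TET3 and EZH2 were lower. The differences were modest: 9 of the 10 were within 2-fold in either direction, and TET1, the exception on the log2(FPKM + 0.1) scale at 2.02-fold, was the gene with the lowest level. All 10 passed limma's moderated test at a Benjamini-Hochberg adjusted p under 0.05, 7 higher and 3 lower. TET1, one of the 7, entered the test only through the 231-BR libraries, so its call is no support for a direction. With a filter at a mean of 1 FPKM, which leaves out TET1, 9 passed, 6 of them higher, as did 81% of all genes. Of the 13465 genes tested, 77.3% passed, 44.4% higher and 32.9% lower, so passing this test was the rule for a gene of this table. For all 10 genes every library of a line lay on the same side of the other line's libraries, which held for 78.4% of genes tested. Against a minimum change of 1.5-fold, only DNMT3B of the 10 passed, where 21.1% of all genes did, 14.6% higher and 6.54% lower. None of the 10 met the study's thresholds for a differentially expressed gene, applied here to the limma fit in place of the study's own test. These were an adjusted p under 0.05, a change of more than 1 log2 unit and at least 1 FPKM. The study does not say how FPKM was averaged, and a mean of 1 FPKM in both lines was asked for here. Of all genes 6.45% met these thresholds, 4.68% higher and 1.77% lower. None of the 10 met them with 1 FPKM in either line. At an unadjusted p under 0.05 the count was 10 of 10 and 10555 of all genes. Their median log2 fold change stood at 0.35 against 0.08 for all genes tested.

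The scaling of the libraries bears on these small differences. Of all calls, 57.4% were higher in 231-BR cells with FPKM as deposited, 50.3% after median-of-ratios scaling and 45.7% after quantile normalization, which shifted the median of all genes by -0.08 and -0.14 on the log2 scale. The 10 genes kept their direction under both. The number passing at an adjusted p under 0.05 was 9 (6 higher and 3 lower) with median-of-ratios scaling and 8 (5 higher and 3 lower) with quantile normalization, the losses being DNMT3A under both and TET2 under the latter.

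**Figure D1:**
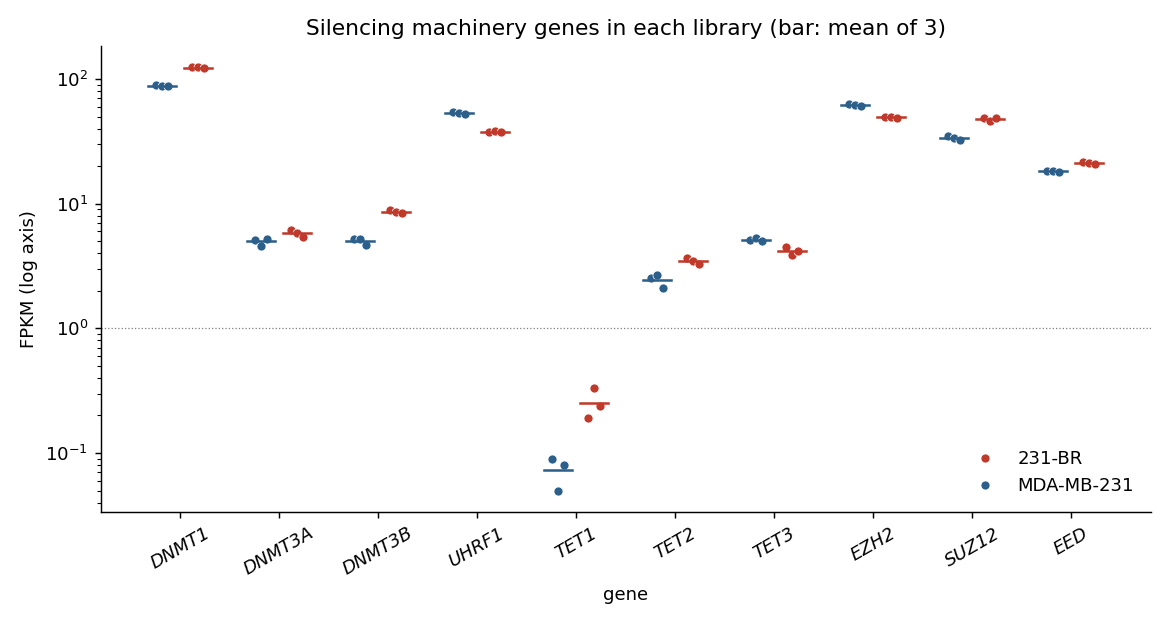
Level of each of the 10 genes in FPKM on a log axis, with a point for each library, 3 per line, and a bar for the mean of 3; the dotted line marks 1 FPKM. DNMT1 was the highest gene in both lines, TET1 lay under 1 FPKM in every library, and no gene's points overlapped between the lines.

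In both lines the order of the levels began with DNMT1 and ended with TET2 and TET1. In 231-BR cells it ran DNMT1, EZH2, SUZ12, UHRF1, EED, DNMT3B, DNMT3A, TET3, TET2 and TET1, and only the ranges of EZH2 and SUZ12 overlapped. In MDA-MB-231 cells UHRF1 stood above SUZ12, and TET3, DNMT3B and DNMT3A followed EED with overlapping ranges between neighbours in the order. DNMT3B thus stood clear above DNMT3A and TET3 in 231-BR cells, while in the parental MDA-MB-231 cells its mean lay between theirs with overlapping ranges.

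DNMT1, the maintenance methyltransferase, was at 124.67, 123.77 and 121.71 FPKM in the 231-BR libraries and at 89.22, 87.75 and 87.96 FPKM in the MDA-MB-231 libraries. Every 231-BR library was thus above every parental one. This was a log2 fold change of 0.48 (SE 0.0219, 95% CI 0.43 to 0.53, adjusted p = 2e-08), with means of 123 ± 1.52 and 88.3 ± 0.795 FPKM (SD, n = 3 each). It was the smallest p of the 10 genes, but 40% of all genes tested had a larger absolute change.

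DNMT3B, a de novo methyltransferase that in adult tissue is mostly low, was at 8.9, 8.54 and 8.48 FPKM in 231-BR cells and at 5.22, 5.22 and 4.66 FPKM in parental cells. The groups did not overlap, and the means were 8.64 ± 0.227 and 5.03 ± 0.323 FPKM. Its log2 fold change of 0.77 (SE 0.0572, 95% CI 0.64 to 0.90, adjusted p = 7.1e-07) was the largest of the methyltransferases. The test against 1.5-fold gave an adjusted p of 0.024. That call rested on the setting: the adjusted p was 0.095, 0.058 and 0.05 without 231-BR replicate 1, 2 and 3, 0.067 when MDA-MB-231 replicate 3 was left out, 0.21 with median-of-ratios scaling, 1 with quantile normalization and 0.29 with a pseudocount of 1.

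DNMT3A, the other de novo methyltransferase, was at 6.12, 5.87 and 5.43 FPKM in 231-BR cells and at 5.14, 4.56 and 5.25 FPKM in parental cells. The lowest 231-BR library stood 5.43 against the highest parental one at 5.25, so the groups were separate by little. On the log2 scale the difference was 0.22 (SE 0.0698, 95% CI 0.061 to 0.37, adjusted p = 0.016), a size that 69.1% of all genes exceeded. It did not pass when MDA-MB-231 replicate 2 was left out (adjusted p = 0.064), nor without 231-BR replicate 1 (0.067) or 2 (0.051). The same held with median-of-ratios scaling (log2 fold change 0.14, adjusted p = 0.097) or quantile normalization (0.011, adjusted p = 0.89).

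UHRF1, the reader of hemimethylated DNA that recruits DNMT1, went the other way. It was at 37.61, 38.54 and 37.33 FPKM in 231-BR cells and at 54.73, 53.52 and 52.41 FPKM in parental cells, with a clear gap between the groups. Its log2 fold change was -0.50 (SE 0.0276, 95% CI -0.56 to -0.44, adjusted p = 7.7e-08). Of the 100-base windows of its longest coding transcript in GENCODE release 29, 20.7% (872 of 4210) also occur in the processed pseudogene AC112777.1, which the table does not list, so reads may be shared and the level is uncertain to that extent. For SUZ12 the share was 3.83% (168 of 4392), with SUZ12P1, and for the other 8 genes it was 0.

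The TET genes did not move together. TET2, the member most often mutated in blood cancers, was at 3.7, 3.45 and 3.27 FPKM in 231-BR cells and at 2.54, 2.67 and 2.1 FPKM in parental cells, without overlap. Its log2 fold change was 0.50 (SE 0.0952, 95% CI 0.29 to 0.71, adjusted p = 0.00077), falling to 0.21 with quantile normalization (adjusted p = 0.052).

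TET3, known for its part in demethylation of the zygote, was at 4.46, 3.89 and 4.15 FPKM in 231-BR cells and at 5.12, 5.32 and 5.04 FPKM in parental cells. All parental libraries were higher. The difference was -0.30 on the log2 scale (SE 0.0635, 95% CI -0.45 to -0.16, adjusted p = 0.0014).

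TET1, which is prominent in embryonic stem cells, was close to absent. It was at 0.19, 0.33 and 0.24 FPKM in 231-BR cells and at 0.09, 0.05 and 0.08 FPKM in parental cells, so no library reached 1 FPKM and the groups did not overlap. The log2 fold change was 1.02 (SE 0.21, 95% CI 0.54 to 1.49, adjusted p = 0.0013), and it ran from 0.22 with a pseudocount of 1 to 1.66 with a pseudocount of 0.01. The ratio of the mean FPKM was 3.45. TET1 passed the filter on low values, a mean of at least 0.1 FPKM, through the 231-BR libraries. In the sum over the family the parts nearly balanced, with 7.66 to 8.35 FPKM in 231-BR cells and 7.22 to 8.04 FPKM in parental cells, ranges that overlap. TET3 made up 50.7% to 54.2% of this sum in 231-BR cells and 66.1% to 69.8% in parental cells.

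Among the PRC2 core genes the catalytic subunit fell while the other subunits rose. EZH2, the main H3K27 methyltransferase of dividing cells, was at 49.6, 49.57 and 48.8 FPKM in 231-BR cells and at 62.93, 61.87 and 60.69 FPKM in parental cells, without overlap. Its log2 fold change was -0.33 (SE 0.0249, 95% CI -0.38 to -0.27, adjusted p = 9e-07).

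SUZ12, the scaffold on which PRC2 and its accessory subunits assemble, was at 49.07, 45.7 and 48.85 FPKM in 231-BR cells and at 34.62, 33.37 and 32.23 FPKM in parental cells. Every 231-BR library was the higher. The log2 fold change was 0.52 (SE 0.0374, 95% CI 0.43 to 0.60, adjusted p = 5.8e-07).

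EED, the subunit that binds trimethylated H3K27 and stimulates the enzyme, was at 21.54, 21.36 and 20.9 FPKM in 231-BR cells and at 18.39, 18.36 and 17.96 FPKM in parental cells. The groups were separate, and the log2 fold change was 0.22 (SE 0.0309, 95% CI 0.15 to 0.29, adjusted p = 8.8e-05). The sum of the 3 core genes was 117 to 120 FPKM in 231-BR cells and 111 to 116 FPKM in parental cells.

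Ratios of levels within a library do not move with a scaling factor of that library, and are given for pairs that work together. UHRF1/DNMT1 was 0.302, 0.311 and 0.307 in 231-BR cells and 0.613, 0.610 and 0.596 in parental cells. The log2 difference of -0.98 was the largest of the 6 ratios computed. EZH2/SUZ12 was 1.01, 1.08 and 0.999 in 231-BR cells and 1.82, 1.85 and 1.88 in parental cells (log2 difference -0.84). EZH2/EZH1, the balance of the alternative catalytic subunits, was 6.77 ± 0.15 in 231-BR cells and 10.0 ± 0.408 in parental cells (SD, n = 3 each; log2 difference -0.56).

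DNMT3B/DNMT3A was 1.45, 1.45 and 1.56 in 231-BR cells and 1.02, 1.14 and 0.888 in parental cells, so the parental libraries lay on either side of parity. The log2 difference was 0.55. SUZ12/EED was 2.25 ± 0.102 and 1.83 ± 0.0456 (SD, n = 3 each; log2 difference 0.30). Summed TET over summed DNMT was 0.0573 ± 0.00224 and 0.078 ± 0.00434 (SD, n = 3 each; log2 difference -0.45), with summed DNMT at 136 to 140 FPKM in 231-BR cells and 97.5 to 99.6 FPKM in parental cells. DNMT1 made up 89.2% to 89.7% and 89.6% to 90.0% of the summed DNMT. The lines were separate for each of the 6 ratios, and the exact two-sided permutation test gave p = 0.1 (adjusted over the 6 ratios, 0.1), the smallest value 3 against 3 libraries allow.

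**Figure D2:**
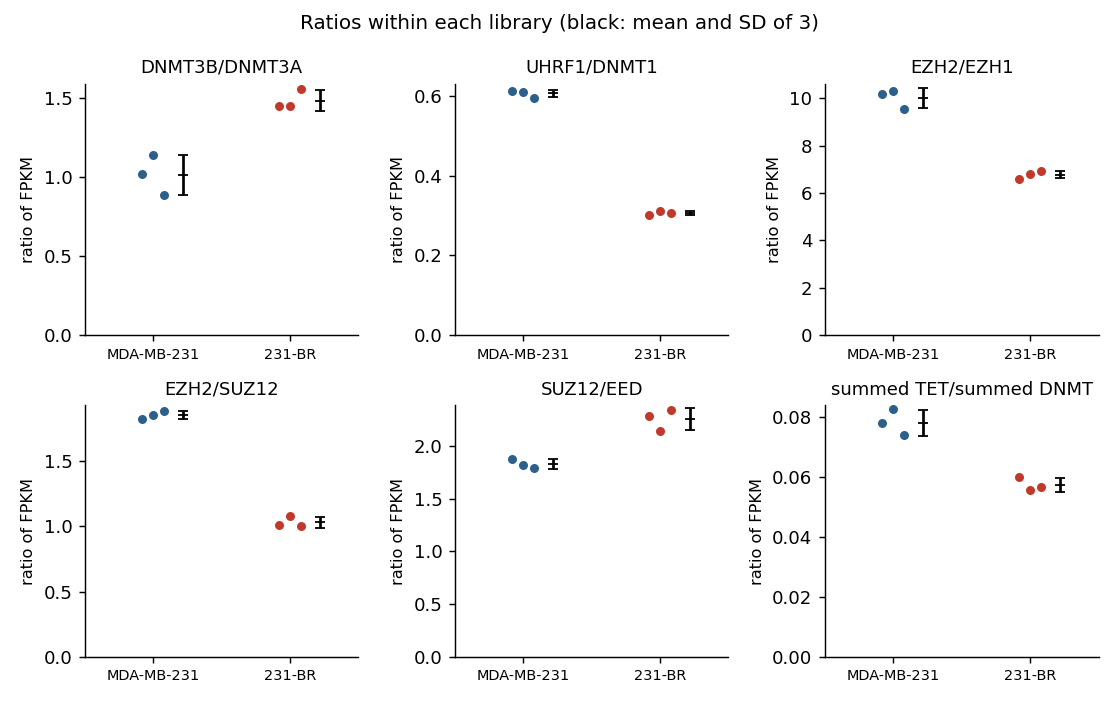
The 6 ratios of FPKM within each library, a point per library, with the mean and SD of 3 in black; each axis starts at 0. UHRF1/DNMT1, EZH2/EZH1, EZH2/SUZ12 and summed TET/summed DNMT were lower in all 3 libraries of 231-BR cells, and DNMT3B/DNMT3A and SUZ12/EED were higher.

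Genes near each of the 10 on its chromosome moved too, and their values are set beside those of the gene. For each gene the 40 nearest genes with a mean of at least 1 FPKM were taken, 20 on either side in RefSeq order. Around DNMT1 on chromosome 19 the neighbours had a median log2 fold change of 0.77, above the 0.48 of DNMT1 itself, and 38 of 40 were higher in 231-BR cells. Around TET2 on chromosome 4 the median was 0.47 with 39 of 40 higher, against 0.50 for TET2. Around EZH2 on chromosome 7 it was -0.35 with 9 of 40 higher, against -0.33 for EZH2. For TET2 and EZH2 the difference between the lines thus lay within 0.033 and 0.021 of the median of these neighbours. For EZH2 the median was -0.22 with 20 neighbours and -0.28 with neighbours of at least 0.1 FPKM.

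SUZ12 and EED lay in neighbourhoods that were also higher, with medians of 0.34 (chromosome 17, 35 of 40 higher) and 0.37 (chromosome 11, 31 of 40 higher). UHRF1, in another stretch of chromosome 19, had neighbours with a median of -0.24, 10 of 40 being higher. DNMT3B on chromosome 20 lay above most of its neighbours: their median was -0.12, only 11 of 40 were higher, and 39 of 40 lay below the value of DNMT3B. DNMT3A on chromosome 2 stood above a median of -0.14, with 34 of 40 neighbours below it, TET3 on the same chromosome lay below a median of -0.014, and TET1 on chromosome 10 stood above a median of 0.27. The part of the surrounding stretch of chromosome in these differences was not tested. Of the 20 medians recomputed with 20 neighbours or with neighbours of at least 0.1 FPKM, 0 changed sign, and the largest move was 0.155, for EED with 20 neighbours (0.52).

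**Figure D3:**
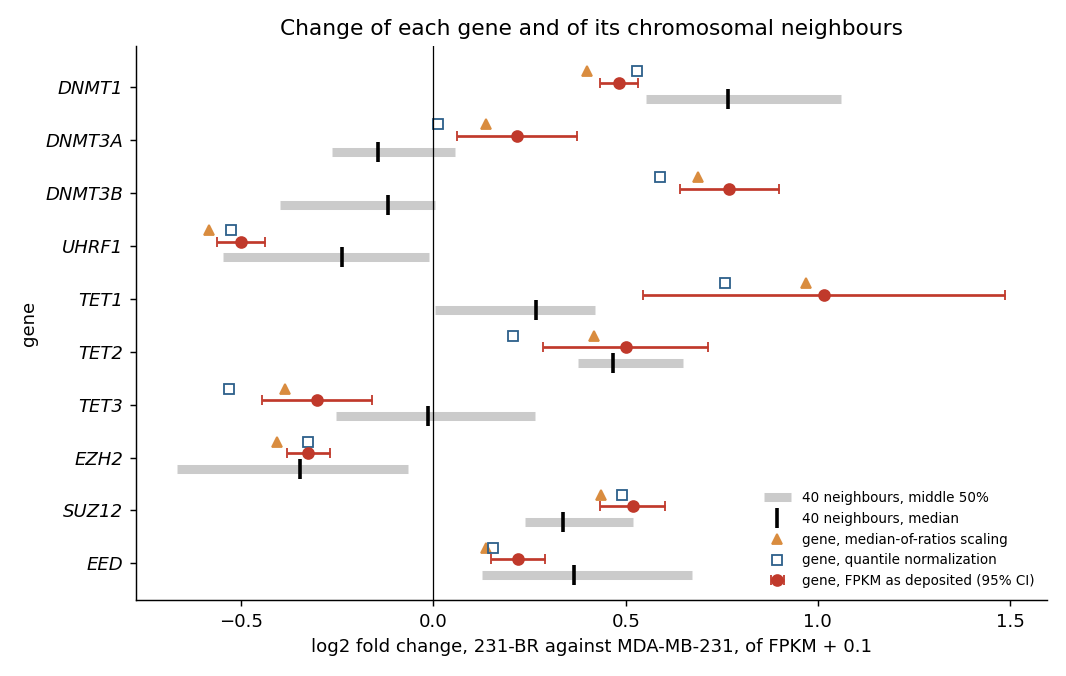
Log2 fold change of each of the 10 genes, 231-BR against MDA-MB-231, of FPKM + 0.1 (circle with 95% CI), with the value after median-of-ratios scaling (triangle) and quantile normalization (square); the grey bar and black tick give the middle 50% and the median of 40 chromosomal neighbours. DNMT3A, DNMT3B and TET1 lay to the right of their neighbours' bars and DNMT1 and TET3 to the left. UHRF1, TET2, EZH2, SUZ12 and EED lay within theirs. The squares of DNMT3A and TET2 lay at 0.011 and 0.21.

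Genes for proteins that work with the methyltransferases were more often lower than higher in 231-BR cells. Of 12 partner genes tested, 4 rose and 7 fell, with a median log2 fold change of -0.18. Over all genes tested, 44.4% rose and 32.9% fell. CDCA7L and CDCA7, which are related by sequence, moved in opposite directions. CDCA7L was at 58.1 ± 0.767 and 31.1 ± 0.554 FPKM (SD, n = 3 each; log2 fold change 0.90, adjusted p = 9.7e-10). CDCA7, an activator of the chromatin remodeller HELLS that is mutated in a syndrome of DNA hypomethylation, was at 21 ± 0.57 and 38.1 ± 1.59 FPKM (log2 fold change -0.86, adjusted p = 1.5e-08).

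Of 10 tested genes for proteins that bind CpG sites, methylated or not, 5 were higher and 4 lower. Over all genes the shares were 44.4% and 32.9%, so the split is not particular to this list. The largest increase was that of MBD2, a methyl-CpG binding subunit of the NuRD corepressor, at 21.8 ± 0.813 against 11.8 ± 0.192 FPKM (log2 fold change 0.89, adjusted p = 1.3e-08). MBD1 (0.76) and CXXC1 (0.78), the latter a binder of unmethylated CpG in a histone H3K4 methyltransferase complex, also passed the 1.5-fold test. CXXC5, which has been linked to TET2, fell by 0.87 on the log2 scale, from 11.5 ± 0.53 to 6.22 ± 0.302 FPKM. The median of the list was 0.095 and turned to -0.05 with quantile normalization.

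Of the 10 tested genes of active demethylation and base excision, 6 rose and 4 fell (median 0.32), against 44.4% and 32.9% of all genes. OGT, the O-GlcNAc transferase that binds TET proteins, was at 77.8 ± 1.04 against 42.2 ± 1.96 FPKM (log2 fold change 0.88, adjusted p = 6.6e-09). GADD45A, a stress-induced gene reported to take part in demethylation, was at 33.1 ± 0.921 against 62.8 ± 1.78 FPKM (-0.92, adjusted p = 2.9e-09). These had the largest changes of their list in either direction.

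Of the 11 further genes of PRC2 tested, 4 were higher and 5 lower, against 44.4% and 32.9% of all genes. EZH1, the catalytic subunit of non-dividing cells, was at 7.5, 7.3 and 7.06 FPKM in 231-BR cells and at 6.18, 6.02 and 6.37 FPKM in parental cells, opposite in direction to EZH2 (log2 fold change 0.23, adjusted p = 0.0014, and 0.063 with adjusted p = 0.25 after quantile normalization). The histone-binding subunits RBBP4 and RBBP7, which substitute for each other, also went in opposite directions. RBBP4 was at 24.2 ± 0.382 against 19.7 ± 0.854 FPKM (0.30, adjusted p = 4e-05) and RBBP7 at 79 ± 0.856 against 105 ± 1.96 FPKM (-0.41, adjusted p = 1.2e-07).

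The widest differences of PRC2 were in its accessory subunits, not in its core. EPOP, which joins a form of PRC2 to the elongin proteins, was at 8.91, 9.31 and 9.37 FPKM in 231-BR cells and at 2.4, 2.08 and 2.4 FPKM in parental cells. It was 3.89-fold higher (log2 fold change 1.96, adjusted p = 3e-09). PHF19, a Polycomb-like protein that helps PRC2 to bind chromatin, was at 66.54, 63.92 and 64.91 FPKM in 231-BR cells and at 119.94, 125.19 and 129.88 FPKM in parental cells (log2 fold change -0.94, adjusted p = 2.6e-09). The median of the list, 0.060, turned to -0.022 with median-of-ratios scaling and -0.075 with quantile normalization.

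Of 30 PRC1 genes tested, 14 rose, 8 fell and 8 did not pass (median 0.12). This was near the shares over all genes, of which 44.4% rose and 32.9% fell. The split was 14 higher and 10 lower with median-of-ratios scaling (median 0.035) and 13 and 12 with quantile normalization (0.041). RNF2, the main ubiquitin ligase of PRC1, was at 16 ± 0.582 against 7.71 ± 0.254 FPKM (log2 fold change 1.04, adjusted p = 1.2e-08). KDM2B, which brings a variant PRC1 to unmethylated CpG islands, was at 14.5 ± 0.276 against 8.75 ± 0.0854 FPKM (0.72). AUTS2, a subunit of a PRC1 form linked to activation, was at 0.183 ± 0.0404 against 0.723 ± 0.0252 FPKM (-1.55), under 1 FPKM in both lines.

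Of 9 tested genes that remove or oppose the Polycomb marks, 1 rose, 5 fell and 3 did not pass (median -0.13). Over all genes tested, 44.4% rose and 32.9% fell. MYSM1, a histone H2A deubiquitinase, was at 3.22 ± 0.225 against 7.44 ± 0.257 FPKM (log2 fold change -1.18, adjusted p = 6.7e-08) and was the only gene of this list past 1.5-fold.

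Genes of S phase and proliferation, among them known E2F targets, were mostly lower in 231-BR cells. Of 24 tested, 18 fell, 3 rose and 3 did not pass, where 32.9% of all genes fell and 44.4% rose. The list had a median of -0.25. The median was -0.33 with median-of-ratios scaling and -0.17 with quantile normalization. The proliferation marker MKI67 was at 93.5 ± 1.55 against 119 ± 4.39 FPKM (log2 fold change -0.35, adjusted p = 2.1e-06). PCNA, the replication clamp that also binds DNMT1 and is counted among its partners as well, was at 152 ± 2.25 against 181 ± 3.74 FPKM (-0.25, adjusted p = 4.6e-06). TYMS, thymidylate synthase, had the largest fall, at 126 ± 1.84 against 253 ± 4.59 FPKM (-1.003), followed by the replication helicase subunit MCM3 (-0.79). These genes lay on the side of UHRF1 and EZH2 and opposite to DNMT1 and SUZ12. The part of proliferation in the differences of the 10 genes was not tested.

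**Figure D4:**
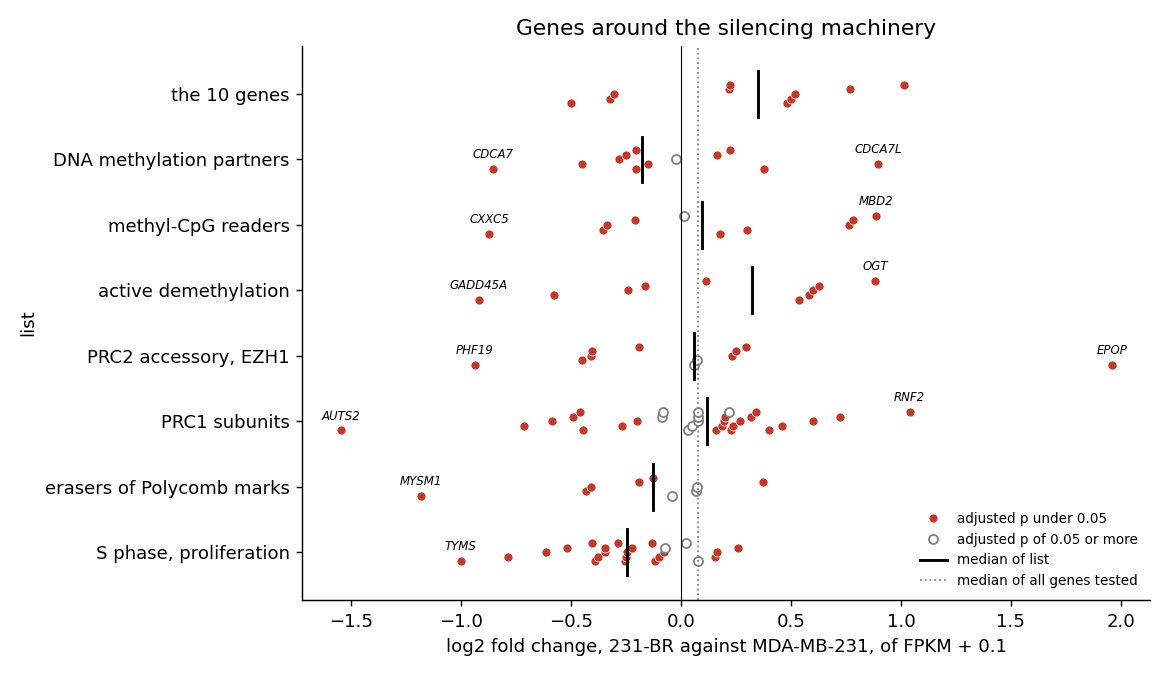
Log2 fold change, 231-BR against MDA-MB-231, of FPKM + 0.1 for the 10 genes and for the tested genes of 7 lists around them, filled where the adjusted p was under 0.05; black ticks give list medians and the dotted line the median of all genes tested (0.08). The 10 genes lay between -0.50 and 1.02, EPOP at 1.96 and AUTS2 at -1.55 lay farthest out, and the S phase genes lay mostly to the left of 0.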

How the data were processed

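Libraries were grouped by their titles. The cell line field of the labels counts up with the replicate number in both groups, which was read as a filling error, and the 3 libraries per line rest on that reading. RNA of 3 libraries each of 231-BR and MDA-MB-231 cells had been sequenced by the authors as paired reads of 100 bases, without a stated strand. The submitters' processing notes name HISAT2 2.0.4, Bowtie2 2.2.5 and the build GRCh38.p12. The authors deposited FPKM per gene with 2 decimals. The program that computed it is not given in the sources used here. Read counts were not used here, so the DESeq2 test of the study could not be repeated. The table and the 6 single-library files held equal values, and 25 gene symbols stored as dates were repaired through the gene ID.

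The 13465 genes averaging 0.1 FPKM or more were fitted as log2(FPKM + 0.1) with a term for the line in limma 3.58.1 under R 4.3.3 (lmFit, eBayes with trend), and treat tested against 1.5-fold. Benjamini-Hochberg adjustment covered all genes fitted. Fold changes are on this log2 scale and understate those of low genes. The fit was tested on simulated data with 50 changed genes of each size. It called 16 at a change of 0.2 log2 units, 45 at 0.5, 49 at 1 and 50 at 2. Few genes were changed there, while 77.3% passed in the data, so these shares cannot be carried over. Python 3.11.15 served for the ratios (scipy 1.17.1), the sequence matches (pandas 2.3.3) and the figures (matplotlib 3.10.9). Shared sequence was counted in GENCODE release 29.

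The members and lists were chosen with earlier results of these data known. The text names the 10 genes, EZH1, RBBP4, RBBP7, MKI67, PCNA and, of each other list, the genes past 1.5-fold, at most 3 in each direction. A single result is not reported here. Same-numbered libraries did not deviate together (r = 0.087, -0.04 and -0.106 over 11124 genes), so the numbers were not taken to pair them. The alternatives were pseudocounts of 1 and 0.01, no filter and a filter at a mean of 1 FPKM, quantile normalization, median-of-ratios scaling, a replicate block, eBayes without trend, each library left out, a mean of 1 FPKM in either line, and other sets of neighbours.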

Additional observations from a re-analysis of the deposited data

How the results depend on the processing

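The log2 fold changes of the 10 genes, the 6 ratios and the medians of chromosomal neighbours kept their sign under every alternative run. Directions that turned with a scaling were those of MAEL, of some list genes that had not passed and of the list medians named in the text. Of 389 recomputed values, counts included, 357 kept their call or moved within the spread, 26 moved further (15 of them medians of chromosomal neighbours) and 6 no longer passed. The count of the 10 genes past 1.5-fold (main value 1) was 0 with a pseudocount of 1, median-of-ratios scaling or quantile normalization, 2 with a pseudocount of 0.01 (DNMT3B and TET1, adjusted p 0.031 for TET1), and 0 to 1 with a library left out. The log2 fold change of DNMT3A did not pass with median-of-ratios scaling (0.136), quantile normalization (0.011) or without 3 of the single libraries (0.156 to 0.264 over all 6). That of TET2 did not pass with quantile normalization (0.208). The germline genes called (3) were 1 with quantile normalization and 1 to 2 with a library left out, and the developmental regulators called (7) were 3 at a mean of at least 1 FPKM. At that filter TET1 and all germline genes were not tested. The causes were not tested, apart from the fewer genes tested there. The replicate block called all 10 genes, 7 of them higher, and 78% of genes tested, and changed no call of the 10. The depth is unknown, so no limit can be set on TET1 and the other genes under 1 FPKM.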

Other observations

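Genes commonly held silent by promoter DNA methylation stayed near 0 in both lines. Of 18 germline genes listed, 10 were in the table and 4 passed the filter on low values, of which 3 rose in 231-BR cells. Over all genes tested, 44.4% rose. TEX14, needed for germ cell bridges, was at 0.22, 0.28 and 0.25 FPKM in 231-BR cells and at 0.05, 0.08 and 0.1 FPKM in MDA-MB-231 cells (limma adjusted p = 0.00082). The others called were MAEL and SYCP3, and no library exceeded 0.83 FPKM for any of the 4. MAEL turned to a log2 fold change of -0.048 with quantile normalization. TEX14 passed the filter through the 231-BR libraries, where it is high, so its call is no support for a direction of the list. Genes near 0 in both lines leave the test. TEX14, MAEL and SYCP3 were named after their values were seen.

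Developmental regulators known as Polycomb targets went both ways. Over all genes tested, 44.4% rose and 32.9% fell. Of 27 regulators listed, 14 were in the table and 9 were tested, of which 4 rose and 3 fell in 231-BR cells. Among those that rose were FOXA2, a pioneer factor of endoderm, at 21.5 ± 1.23 against 10.4 ± 0.502 FPKM (SD, n = 3 each; limma log2 fold change 1.04, adjusted p = 3.5e-08), and, at low levels, the T-box factor EOMES at 0.39 ± 0.06 against 0.04 ± 0.01 FPKM (1.80). LMX1B, a LIM homeobox factor, was at 0.09 ± 0.0436 against 0.91 ± 0.0529 FPKM (-2.44), and HAND1, a factor of heart and trophoblast, at 0.25 ± 0.0721 against 1.48 ± 0.169 FPKM (-2.19). EOMES passed the filter on low values through the 231-BR libraries and LMX1B through the MDA-MB-231 libraries. Each had a mean under 0.1 FPKM in its lower line, so the filter set the direction of both, though not the size. Their calls are no support for a direction of the list. With quantile normalization 3 of the list were higher and 5 lower (median -0.489, against -0.179 as deposited). The tumour suppressors CDKN2A and CDKN2B, classical Polycomb targets, were at most 0.04 FPKM in every library, and were named after their values were seen. The cause of these low levels was not tested, so they are not to be read as Polycomb silencing.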
